A study of Mus musculus with 3 samples.

Results

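This account covers 55 mouse genes of the lysosome, chosen by name as its hydrolases, membrane proteins and proton pump with 2 of its transcriptional regulators. Each gene was represented on each array by the median of the probesets that name it alone, under its current or a former symbol, and at least 4 probesets were needed. All 55 genes met this rule, among 18865 genes that did so on the array, and they held 8 to 38 probesets each. Tfeb and Tfe3 were found under the former symbols Tcfeb and Tcfe3. The genes were divided into 13 cathepsins and other proteases, 14 glycosidases and sulfatases, 9 lipid enzymes and lipid-handling proteins, 7 membrane proteins, 7 proton pump genes, 3 genes of phosphatases and progranulin, and 2 transcription factors.

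The RNA came from GFP-positive cells sorted from the bone marrow of C57BL/6 mice in which the nestin promoter drives GFP, so the population is defined by the activity of that promoter in the transgene. There were 3 arrays of 1 group, titled 1 to 3, and no control group. The labels used here do not give the age or sex of the mice, any other gate, or whether the samples came from separate mice, so p-values cover no more than the variation among these samples, and that may be technical. The RNA was amplified with a kit for picogram inputs before it was labelled, and the number of arrays limits the precision.

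The lysosome is the acidic compartment in which cells break down proteins, sugars and lipids taken up from outside or delivered by autophagy. Its soluble hydrolases are sorted there by mannose 6-phosphate tags, its membrane is lined by heavily glycosylated proteins, and a proton pump, the V-ATPase, keeps it acid. The related factors TFEB and TFE3 switch on many lysosomal genes together. In bone, osteoclasts secrete lysosomal proteases and acid onto the matrix, and macrophages are rich in lysosomes, so several of these genes are also known as markers of those cells.

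With no second group, a gene was set against a background measured on the same array, made of 355 olfactory, vomeronasal and bitter taste receptor genes, which marrow cells are not known to use. Their medians were 3.40, 3.46 and 3.33 on arrays 1, 2 and 3, and their 95th percentile, the threshold, was 5.40, 5.66 and 5.64 (all values are on the authors' log2 scale). The distance of a gene from its own array's threshold is called its margin. A gene was called above background at an adjusted p below 0.05 in limma's one-sided test, with the Benjamini-Hochberg adjustment over all 18865 genes. Probes differ in affinity, so values of different genes do not rank their transcripts.

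The sorted cells gave a signal from most of the lysosomal genes. Of the 55 genes, 48 (87.3%) were above background, where 50.6% of all genes were, and 51 (92.7%) lay above the threshold on all 3 arrays, where 55.0% of all genes did. Against the stricter 99th percentile of the background genes, which was 6.89, 6.85 and 6.64 on arrays 1, 2 and 3, 31 (56.4%) were called, where 20.1% of all genes were. The median margin of the 55 genes over the 95th percentile was 2.06, and that of all genes was 0.50. The 7 genes not called were Ctss, Manba, Neu1, Galc, Atp6v0d2, Acp5 and Tfeb, and only Ctss and Atp6v0d2 had a mean below the threshold. The count was 45 without array 1, 47 without array 2 and 44 without array 3. The background genes had a median of 5 probesets, fewer than any of the 55 genes. Among genes of at least 8 probesets, 48 of the 55 and 8736 of all 14523 were called. Against the 99th percentile 41 of the 55 and 5196 of all were called there. Only 71 background genes were left in that setting, and their 99th percentile was lower, at 6.12, 6.36 and 6.28 on arrays 1, 2 and 3. With genes of at least 2 probesets, the 99th percentile of 986 background genes gave 25 of the 55 and 2950 of all 21212.

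**Figure D1:**
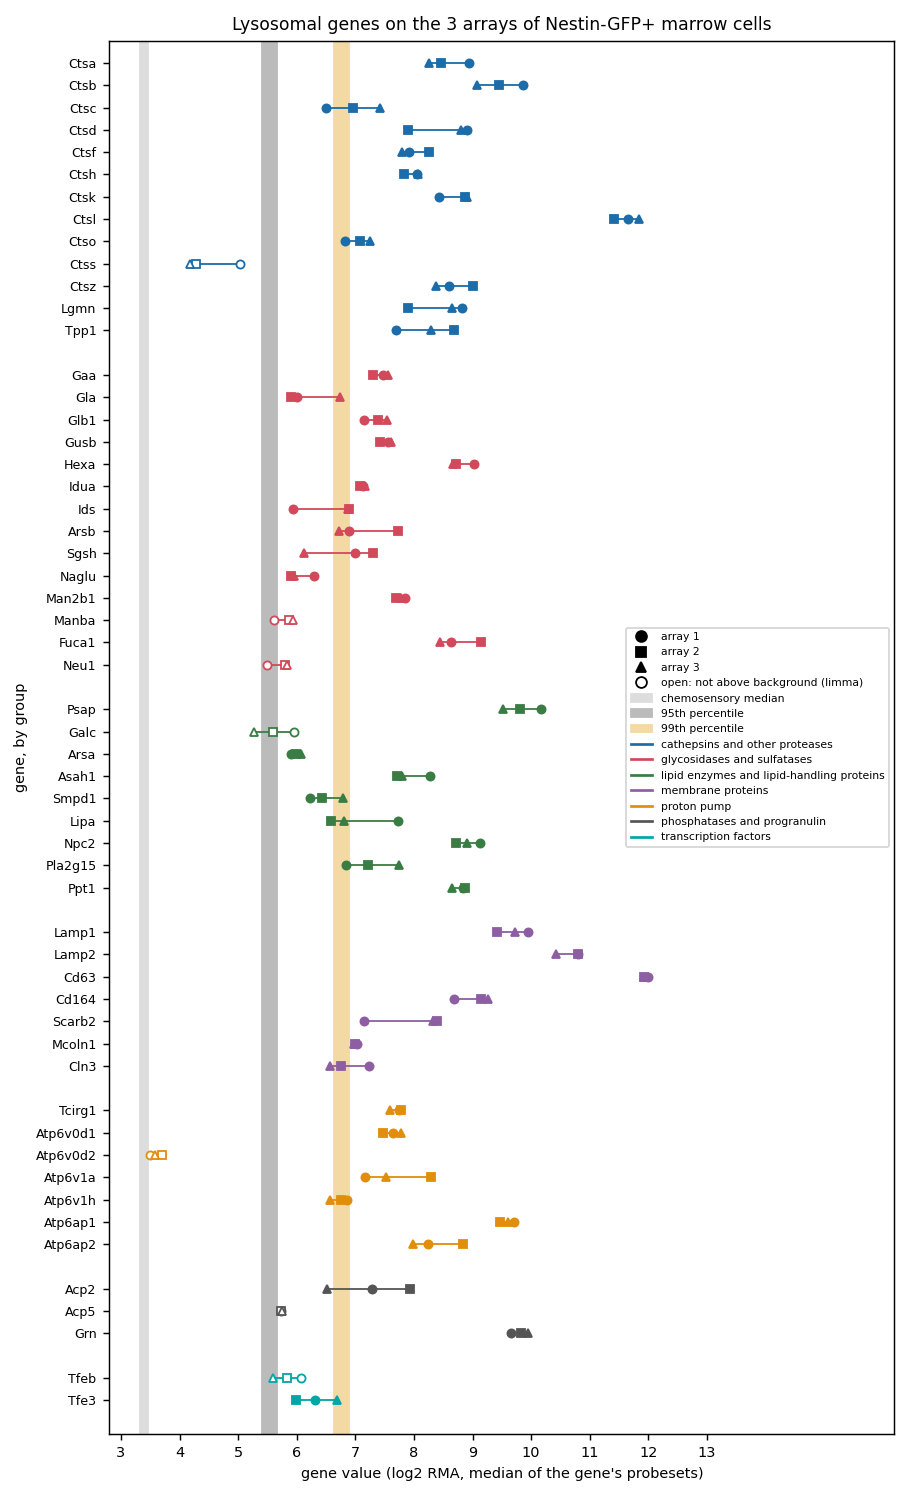
Value of each lysosomal gene on arrays 1, 2 and 3 (horizontal axis, log2 RMA, median of the gene's probesets), with genes grouped down the page, and open symbols for genes not above background in limma's test. The bands span the 3 arrays' medians, 95th and 99th percentiles of the chemosensory genes. Ctss and Atp6v0d2 lie left of the 95th percentile band on every array, and Cd63 and Ctsl lie above 11 on every array.

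**Figure D2:**
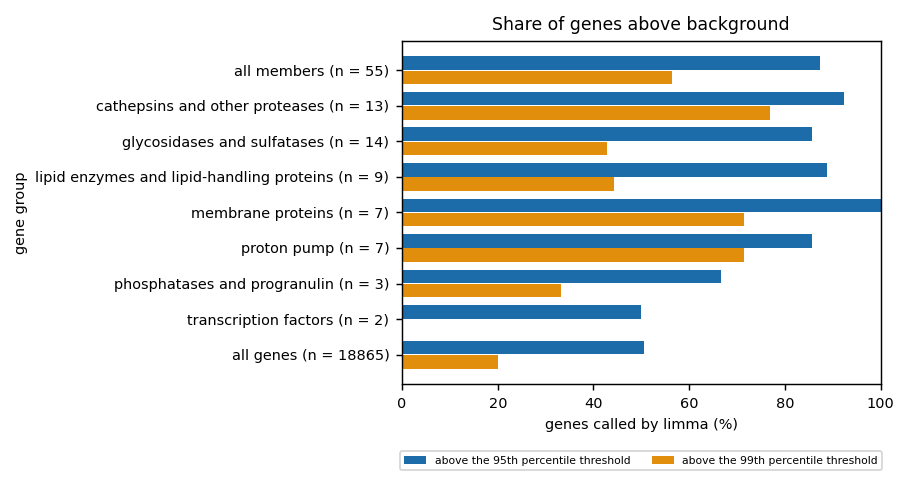
Share of genes called by limma (horizontal axis, percent) above the 95th and the 99th percentile thresholds, for all 55 lysosomal genes, for each group and for all 18865 genes. The shares for all lysosomal genes are 87.3% and 56.4%, and those for all genes are 50.6% and 20.1%.

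Before the groups are described, marker genes of several cell types are given. The lists were chosen with earlier results of these data known, so they are no independent check of the cells' label. Of 10 genes of perivascular marrow stroma, 9 were above background, with the chemokine gene Cxcl12 at 11.77, 11.89 and 11.61 on arrays 1, 2 and 3. The exception was Nes itself, at 5.97, 5.21 and 5.56 (adjusted p = 0.757, limma). The transgene does not have to track the endogenous transcript, and GFP was not among the genes measured here. Macrophage markers were called in 4 of 13 cases and osteoclast markers other than the genes described here in 0 of 8. Pan-leukocyte markers were called in 2 of 8, neutrophil markers in 5 of 8 and endothelial markers in 6 of 9. The share of all genes above background was 50.6%. The macrophage, osteoclast and pan-leukocyte lists lay below that share, and the stromal, neutrophil and endothelial lists above it. No list was tested against it, so these counts alone do not show that a cell type was present or absent. Without array 1 the macrophage count was 2 and the endothelial count was 3, while the endothelial count was 8 without array 2 and 5 without array 3. All 9 endothelial markers had an unadjusted p below 0.05. In a sorted population measured in bulk, fewer cells of a type and less RNA per cell cannot be told apart.

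Of 13 lysosomal proteases 12 were above background (92.3%, against 50.6% of all genes). Above the stricter threshold were 10 (76.9%, against 20.1% of all genes). Ctsl, a cysteine endopeptidase of broad substrate range, had 11.66, 11.41 and 11.85 on arrays 1, 2 and 3. Its mean of 11.64 ± 0.22 (SD, n = 3) lay 6.07 above the threshold (adjusted p = 2.67e-07, limma). Ctsb, a related cysteine protease, had 9.87, 9.45 and 9.08, a margin of 3.90 (adjusted p = 1.56e-06, limma). For both genes every array lay above the 99th percentile of the background. Ctsk, the collagen-degrading protease best known from osteoclasts and also made by some fibroblasts, had 8.43, 8.88 and 8.91. Its margin was 3.17 (adjusted p = 1.28e-06, limma), and 10 of its 11 probesets lay above the probeset threshold described further on.

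Further members of this group passed with moderate spread over the arrays. The aspartic protease gene Ctsd stood at 8.54 ± 0.55 (SD, n = 3), Ctsa, whose product also protects beta-galactosidase and neuraminidase from breakdown, at 8.55 ± 0.35, and the carboxypeptidase gene Ctsz at 8.66 ± 0.32. The cysteine proteases Ctsf and Ctsh stood at 7.99 ± 0.24 and 7.98 ± 0.14, and Ctso at 7.04 ± 0.21. Lgmn, the asparaginyl endopeptidase that processes other cathepsins, stood at 8.45 ± 0.48. Tpp1, an aminopeptidase that removes tripeptides, had 7.70, 8.68 and 8.30 and the widest range of the group once array medians were centred. Array 1 was its lowest, yet all 3 values lay above both thresholds. The called gene with the smallest margin was Ctsc, the dipeptidyl peptidase that activates granule proteases of neutrophils and other leukocytes. It had 6.50, 6.96 and 7.42, a margin of 1.40 (adjusted p = 2.40e-04, limma), and was not called against the 99th percentile.

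The exception among the proteases was Ctss, the cathepsin that trims the invariant chain in antigen-presenting cells. It had 5.04, 4.28 and 4.17 on arrays 1, 2 and 3, below the threshold on every array, with a mean margin of -1.07. Of its 10 probesets, 1 lay above the probeset threshold. The macrophage markers Csf1r, the receptor of the growth factor CSF-1, and Adgre1, which encodes the F4/80 antigen, lay below the threshold on every array as well, with means of 4.88 ± 0.39 and 4.25 ± 0.13 (SD, n = 3). Cd68, a lysosomal glycoprotein of macrophages, had 5.74, 5.70 and 5.83, just above the threshold on each array and not called (adjusted p = 0.287, limma). Of the same 13 markers, 4 were called, with the lysozyme gene Lyz2 at 5.93, 6.72 and 8.03 (adjusted p = 0.00445, limma), the complement gene C1qb at 6.44 ± 0.37, the chemokine receptor gene Cx3cr1 at 6.20 ± 0.20, and Mrc1, which lay above the threshold on arrays 1 and 3. The part of macrophages in the values of the lysosomal genes was not tested.

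Glycosidases and sulfatases remove sugars and sulfate groups from glycans, glycoproteins and glycosaminoglycans. Of 14 such genes 12 were above background (85.7%, against 50.6% of all genes). All 14 lay above the threshold on every array, where 55.0% of all genes did. Against the 99th percentile 6 were called (42.9%), where 20.1% of all genes were. Hexa, the alpha subunit of beta-hexosaminidase, had 9.03, 8.72 and 8.67 on arrays 1, 2 and 3, a margin of 3.24 (adjusted p = 1.94e-06, limma). Fuca1, the alpha-fucosidase, had 8.63, 9.15 and 8.44, a margin of 3.17 (adjusted p = 2.25e-06, limma). Man2b1, the lysosomal alpha-mannosidase, had 7.85, 7.70 and 7.78, with an SD of 0.07. These genes lay above both thresholds on every array.

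Acid alpha-glucosidase (Gaa), which digests glycogen, stood at 7.44 ± 0.14 (SD, n = 3), beta-galactosidase (Glb1) at 7.36 ± 0.20 and beta-glucuronidase (Gusb) at 7.53 ± 0.09, and these also passed the stricter test. Further enzymes of this group act on dermatan and heparan sulfate. Idua, the alpha-iduronidase, stood at 7.12 ± 0.04 and the galactosamine sulfatase gene Arsb at 7.11 ± 0.53. Ids, the iduronate sulfatase, had 5.93, 6.90 and 6.87, with array 1 lowest. Sgsh, the heparan N-sulfatase, had 6.99, 7.29 and 6.13, the widest range of the group, with array 3 lowest. Naglu, an alpha-glucosaminidase of the same pathway, had 6.30, 5.90 and 5.96, a margin of 0.49 (adjusted p = 0.0446, limma). The call of Naglu was lost without array 1 (margin 0.28, adjusted p = 0.163) and without array 3 (adjusted p = 0.0713).

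Gla, the alpha-galactosidase that clears globotriaosylceramide, had 6.00, 5.90 and 6.74, a margin of 0.65 (adjusted p = 0.0182, limma). Its call was lost without array 1 (adjusted p = 0.0642) and without array 3 (margin 0.42, adjusted p = 0.145). The beta-mannosidase gene Manba had 5.60, 5.86 and 5.93, a margin of 0.23, and was not called (adjusted p = 0.202, limma). The sialidase gene Neu1 had 5.50, 5.81 and 5.83, a margin of 0.15, and was not called (adjusted p = 0.367, limma). Both genes lay just above the threshold on each array, and these missing calls do not show that the transcripts were absent.

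Genes of lipid breakdown and lipid transfer were above background in 8 of 9 cases (88.9%, against 50.6% of all genes). They were above the stricter threshold in 4 (44.4%, against 20.1%). Psap, the precursor of the saposins that present sphingolipids to their hydrolases, had 10.17, 9.82 and 9.53 on arrays 1, 2 and 3. Its margin was 4.27 (adjusted p = 8.34e-07, limma), and 17 of its 18 probesets lay above the probeset threshold. Npc2, the soluble protein that carries cholesterol within the lysosome, had 9.13, 8.72 and 8.91, a margin of 3.35 (adjusted p = 1.66e-06, limma). Ppt1, the thioesterase that removes palmitate from proteins, had 8.84, 8.88 and 8.64, a margin of 3.22 (adjusted p = 1.44e-06, limma). All these values lay above the 99th percentile of the background genes.

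Among enzymes of sphingolipid breakdown, acid ceramidase (Asah1) stood at 7.93 ± 0.30 (SD, n = 3) and acid sphingomyelinase (Smpd1) at 6.48 ± 0.28. Arsa, the sulfatase that acts on sulfatide, had 5.91, 5.98 and 6.08, a margin of 0.42 (adjusted p = 0.0454, limma). Arsa was above the threshold on each array, but its call was lost without array 1 (adjusted p = 0.088), without array 2 (adjusted p = 0.119) and without array 3 (adjusted p = 0.146). Galc, the galactosylceramidase of the same pathway, had 5.95, 5.59 and 5.26 and was not called (margin 0.04, adjusted p = 0.695, limma). Only array 1 lay above the threshold for Galc, and without it the margin was -0.22. The phospholipase gene Pla2g15 stood at 7.26 ± 0.45. Lipa, the acid lipase that frees cholesterol and fatty acids from lipoproteins, had 7.73, 6.58 and 6.81, a margin of 1.47 (adjusted p = 0.00108, limma), and was highest on array 1.

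All 7 membrane protein genes were above background, where 50.6% of all genes were. Above the stricter threshold were 5 (71.4%, against 20.1% of all genes). Cd63, a tetraspanin of late endosomes and lysosomes, had 11.99, 11.93 and 11.92 on arrays 1, 2 and 3, with an SD of 0.04 and a margin of 6.38 (adjusted p = 2.67e-07, limma). Lamp2, which serves in chaperone-mediated autophagy, had 10.80, 10.79 and 10.43, a margin of 5.11 (adjusted p = 2.99e-07, limma). Lamp1, its close relative and the other major glycoprotein of the lysosomal membrane, had 9.95, 9.41 and 9.73, a margin of 4.13 (adjusted p = 8.00e-07, limma). For these genes 10 of 11, 17 of 19 and 12 of 13 probesets lay above the probeset threshold.

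Cd164, a sialomucin of endosomes and the cell surface, stood at 9.03 ± 0.32 (SD, n = 3). Scarb2, a sorting receptor and major glycoprotein of the lysosomal membrane, had 7.16, 8.40 and 8.33, the widest range of the group, with array 1 lowest. Mcoln1, the calcium channel of the lysosomal membrane, had 7.03, 6.999 and 6.98, an SD of 0.03. Cln3, a membrane protein mutated in juvenile neuronal ceroid lipofuscinosis, had the smallest margin of the group, with 7.24, 6.76 and 6.57 and a margin of 1.29 (adjusted p = 6.87e-04, limma). Neither Mcoln1 nor Cln3 was called against the 99th percentile.

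Paralogous d subunits of the proton pump lay on either side of the background. Atp6v0d1, the d subunit of the membrane sector that most cells use, had 7.64, 7.47 and 7.77 on arrays 1, 2 and 3, a margin of 2.06 (adjusted p = 1.53e-05, limma). Atp6v0d2, the d subunit known from osteoclasts, some macrophages and kidney, had 3.49, 3.70 and 3.58, a margin of -1.98, with 1 of 11 probesets above the probeset threshold. The first lay above both thresholds on every array and the second below the lower one on every array. Tcirg1, the a3 subunit that osteoclasts use most and other cells also express, had 7.74, 7.78 and 7.58, a margin of 2.13 (adjusted p = 1.16e-05, limma).

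Of the other pump genes, the accessory protein gene Atp6ap1 had 9.71, 9.47 and 9.61, a margin of 4.03 (adjusted p = 5.99e-07, limma). Atp6ap2, also known as the prorenin receptor, had 8.23, 8.83 and 7.99, a margin of 2.78 (adjusted p = 5.74e-06, limma). Atp6v1a, the catalytic subunit that hydrolyses ATP, had 7.16, 8.29 and 7.53, with array 2 highest. Atp6v1h, a regulatory subunit, had 6.87, 6.75 and 6.57, the smallest called margin of the group at 1.16 (adjusted p = 5.28e-04, limma). In all, 6 of 7 pump genes were called (85.7%, against 50.6% of all genes). Against the 99th percentile 5 were called (71.4%, against 20.1%).

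Progranulin (Grn), a secreted and lysosomal protein that is processed to granulins, had 9.66, 9.83 and 9.95 on arrays 1, 2 and 3, a margin of 4.25 (adjusted p = 3.84e-07, limma). All 18 of its probesets lay above the probeset threshold. The acid phosphatases differed in their calls. Acp2, the general lysosomal acid phosphatase, had 7.29, 7.93 and 6.52, a margin of 1.68 (adjusted p = 4.58e-04, limma), with the widest range over the arrays of all 55 genes. Acp5, the tartrate-resistant phosphatase used to stain osteoclasts, had 5.73, 5.73 and 5.75, a margin of 0.17, and was not called (adjusted p = 0.319, limma). None of its 8 probesets lay above the probeset threshold.

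Ctsk, Tcirg1, Acp5 and Atp6v0d2 are often listed together as osteoclast genes, and in these cells the first 2 were called and the others were not. The 8 other osteoclast markers had 0 genes above background in limma's test, 0 with an unadjusted p below 0.05, 0 above the threshold on all 3 arrays and 0 without any 1 array. Of these, Dcstamp, needed for osteoclast fusion, had 4.40, 4.03 and 4.32, and Calcr, the calcitonin receptor, had 5.62, 5.64 and 5.70. The calls of Ctsk and Tcirg1 held without each array.

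The 2 transcription factors had a median margin of 0.51, where that of all genes was 0.50 and that of the 55 genes 2.06. Tfe3 had 6.30, 5.98 and 6.69 on arrays 1, 2 and 3, a margin of 0.76 (adjusted p = 0.00763, limma), and its call was lost without array 3 (adjusted p = 0.0534). Tfeb had 6.08, 5.84 and 5.59, above the threshold on arrays 1 and 2 only, and was not called (margin 0.27, adjusted p = 0.205, limma). Tfeb was called when its probesets were averaged instead (margin 0.66, adjusted p = 0.00229, limma), and 7 of its 24 probesets lay above the probeset threshold. Neither gene was called against the 99th percentile, where limma gave 0 of 2 and also 0 at an unadjusted p below 0.05. Their relatives Mitf and Tfec had 6.75, 6.32 and 5.85 and 5.004, 4.74 and 5.56. Mitf was called (adjusted p = 0.017, limma), not so without array 1, and Tfec lay below the threshold on every array.

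TFEB and TFE3 are known to bind the letters CACGTG, above all within a longer palindrome, in promoters of lysosomal genes. Promoter windows from RefSeq (GRCm38.p6), from 250 bases before to 50 after a gene's start, were found for 50 of the 55 genes. Those without a window were Asah1, Atp6v0d2, Atp6v1h, Ctsb and Ctsh. The letters read the same on both strands, and each longer run contains the shorter ones. CACGTG stood in a window of 17 of the 50 genes (34.0%), against 8.09% of 27025 genes with a window and 10.1% of the 14773 of them tested on the arrays. TCACGTGA stood in 8 (16.0%), against 1.12% and 1.69%, and the same run with G before it and C after it in 1, Cln3 (2.0%), against 0.37% and 0.589%. The 8 genes were Atp6v0d1, Atp6v1a, Cd164, Cln3, Ctsa, Ctsd, Gla and Mcoln1. A match describes letters in a window and is not a binding site.

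The stretches below are examples. They carry the most copies of CACGTG (Lamp1) or the TCACGTGA run in some called genes of the membrane proteins, the proteases and the glycosidases. The run in Cln3 and in Ctsa, called genes of the same groups, is not shown. Capitals mark CACGTG in Lamp1 and Mcoln1 and TCACGTGA in the others, and each stretch is given 5′ to 3′ on the gene's strand.
Lamp1: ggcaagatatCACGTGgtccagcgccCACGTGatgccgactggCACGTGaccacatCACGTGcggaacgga
Mcoln1: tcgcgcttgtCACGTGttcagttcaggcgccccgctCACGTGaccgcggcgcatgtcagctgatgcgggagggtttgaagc
Cd164: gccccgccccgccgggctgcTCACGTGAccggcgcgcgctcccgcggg
Ctsd: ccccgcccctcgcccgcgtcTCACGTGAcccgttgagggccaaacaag
Gla: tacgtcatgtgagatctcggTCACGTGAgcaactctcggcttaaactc
The Lamp1 stretch (chr8:13159090-13159160, plus strand) ends at the base before the gene's start and holds 4 copies within 61 bases. The Mcoln1 stretch (chr8:3500438-3500518, plus strand) also ends there and holds 2 copies. The run of letters begins 88 bases before the start in Cd164 (chr10:41519392-41519439, plus strand). It begins 99 bases before it in Ctsd (chr7:142387899-142387946, minus strand). It begins 195 bases before it in Gla (chrX:134601173-134601220, minus strand), where a second copy lies 228 bases before the start.

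All 17 genes with CACGTG in a window were above background, with a median margin of 2.06. Of the 33 genes with a window but no CACGTG, 27 were, with a median margin of 1.96. Over all genes 50.6% were above background, and the share among all genes with CACGTG was not counted. The genes with a window that were not called, Ctss, Manba, Neu1, Galc, Acp5 and Tfeb, are all among those 33. The margins of the 17 genes ran between 0.42 (Arsa) and 6.07 (Ctsl), and those of the 33 between -1.07 (Ctss) and 6.38 (Cd63), so the ranges overlapped.

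A median can hide uneven signal within a gene, so single probesets were examined as well. The threshold for a probeset was the 95th percentile of the chemosensory probesets, which was 7.21, 7.38 and 7.16 on arrays 1, 2 and 3 and higher than that of gene medians. Of 975 probesets of the 55 genes, 525 had a mean above it. At least 50% of the probesets lay above it in 35 genes (63.6%), where 24.2% of all genes reached this share. The median share was 60.0% for the 55 genes and 22.7% for all genes. All probesets lay above it in Ctsl (13 of 13) and Grn (18 of 18).

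Some called genes had few probesets above the probeset threshold. Calls rest on the gene median against the lower gene threshold, so these counts do not show how many probesets a call rests on. Naglu and Arsa each had 1 probeset above the probeset threshold, of 11 and 13. Cln3 had 7 of 28, Tfe3 5 of 31 and Ctsc 5 of 17. Within 1 gene the probesets spanned several log2 units, as in Lamp2, where the lowest probeset mean was 2.57 and the highest 12.42, and in Ctso, with 3.39 and 10.82. The exons behind the probesets are not named here, so these spans are not assigned to isoforms.

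**Figure D3:**
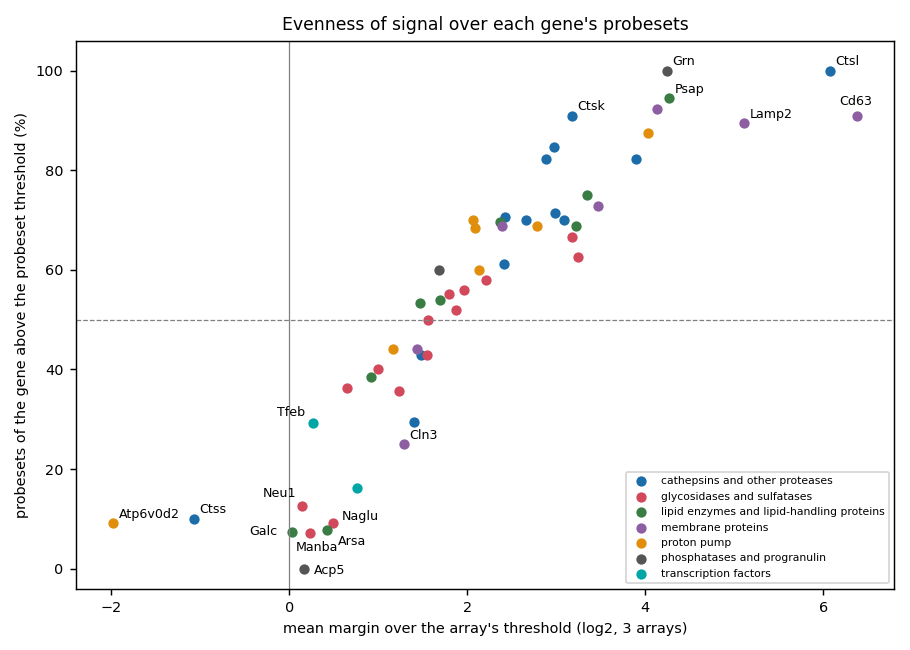
Share of each lysosomal gene's probesets above the probeset threshold (vertical axis, percent) against the gene's mean margin over the threshold on 3 arrays (horizontal axis, log2), one point per gene coloured by group. Grn and Ctsl reach 100%, Acp5 is at 0%, and the dashed line marks 50%. Both axes come from the same probesets.

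The 55 genes varied between the arrays about as much as other genes. Their median SD was 0.27, as was that of all genes. After each array's median deviation over all genes was removed, 7 of the 55 (12.7%) had a range above 1 on the log2 scale, where 15.6% of all genes did. They were Acp2 (1.37), Scarb2 (1.26), Atp6v1a (1.15), Lipa (1.12), Sgsh (1.12), Tpp1 (1.003) and Ids (1.002), while Ctsc and Ctsd, each at 0.98, lay just below. With 2 arrays in place of 3, which can only narrow a range before centring, the count was 2 without array 1, 2 without array 2 and 3 without array 3, where 7.33%, 6.87% and 8.88% of all genes passed. With the mean over probesets it was 2, where 6.94% of all genes passed. No single array set the 55 genes apart. Array 1 held the lowest value for 17 genes, array 2 for 17 and array 3 for 21, and the median deviations were -0.0047, -0.012 and 0.043.

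**Figure D4:**
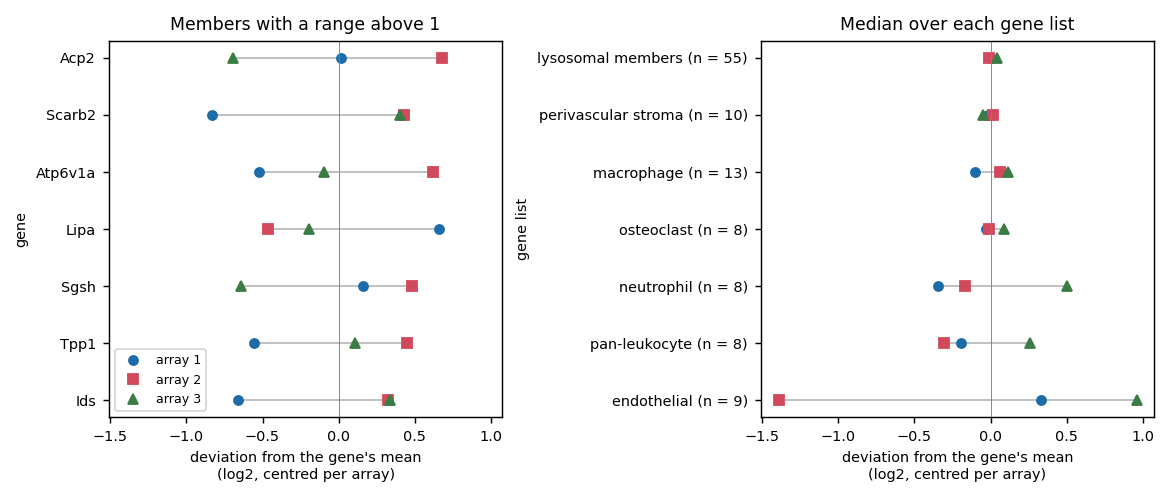
Deviation from the gene's mean over the arrays (horizontal axis, log2, after removal of each array's median deviation) on arrays 1, 2 and 3, for the 7 lysosomal genes with a range above 1 (left) and as the median over gene lists (right). The lysosomal median lies within 0.05 of 0 on each array, while the endothelial median is 0.33, -1.39 and 0.96 on arrays 1, 2 and 3.

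Marker genes of other cells did differ between the arrays. The median deviation of the 9 endothelial markers was 0.33, -1.39 and 0.96 on arrays 1, 2 and 3, and that of the 8 neutrophil markers -0.35, -0.17 and 0.50. Most endothelial markers were lowest on array 2, as were 17 of the 55 lysosomal genes and 6199 of all 18865 genes. Among those 17, Ctsd had 8.90, 7.90 and 8.81 and Lgmn had 8.82, 7.90 and 8.64. Ctsc had 6.50, 6.96 and 7.42, in the same order as the neutrophil markers' medians. Other lysosomal genes, such as Ctsk and Grn, had that order too. The part of these other cells in the values of Ctsd, Lgmn and Ctsc was not tested. The macrophage list had medians of 5.60, 5.70 and 5.61, and limma called 0 of its 13 genes against the 99th percentile, also 0 at an unadjusted p below 0.05. Against that percentile 2 of 8 neutrophil markers were called, S100a8 at 9.81 ± 0.44 (SD, n = 3) and Camp at 8.20 ± 0.33. Of 8 pan-leukocyte markers 1 was called, Lcp2 at 8.47 ± 0.51. Of 9 endothelial markers 0 were called, with 3 at an unadjusted p below 0.05. The share of all genes called there was 20.1%. The mannose receptor gene Mrc1, on the macrophage list, had 8.39, 4.44 and 9.15, a call lost without array 1 and without array 3. Mrc1 was lowest on array 2, as was the endothelial marker Stab2 at 8.19, 5.88 and 9.55. The part of endothelial cells in the values of Mrc1 was not tested.

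Other genes of lysosomal function were counted for comparison, with 63 of 71 measured genes (88.7%) above background and 32 (45.1%) above the stricter threshold. Over all genes the shares were 50.6% and 20.1%, and the counts of each list below are read beside them. The count of these related genes above background was 60 without array 1, 61 without array 2 and 62 without array 3. All 14 further hydrolase and membrane protein genes were called, among them Laptm4a, a membrane protein of late endosomes, at 11.43 ± 0.19 (SD, n = 3), and the peptidase gene Cpq at 9.36 ± 0.12. All 8 genes of hydrolase sorting were called, including the mannose 6-phosphate receptor gene Igf2r at 7.97 ± 0.18 and Gnptg, a subunit of the enzyme that makes the tag, at 8.25 ± 0.24. Galns, a sulfatase among the further hydrolases, lost its call without array 2.

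Of 16 further proton pump subunits 13 were called, with Atp6v0b at 9.05 ± 0.55 (SD, n = 3) and Atp6v1f at 8.88 ± 0.53. The uncalled ones were Atp6v1g3, with 4.95, 5.24 and 4.60 on arrays 1, 2 and 3, Atp6v1b1, with 5.76, 5.88 and 5.18, and Atp6v1e2, with 6.01, 5.74 and 5.83. The first 2 are subunits known from kidney and the last from testis. Their widely used counterparts Atp6v1g1, Atp6v1b2 and Atp6v1e1 were all called, at 8.51 ± 1.20, 8.18 ± 0.27 and 7.91 ± 0.94. Further subunits of this list, Atp6v0a4, Atp6v1c2 and Atp6v1g2, were called as well. Their margins were 0.95, 1.08 and 1.43 (adjusted p = 0.00123, 0.00695 and 0.00192, limma). Whether the calls follow the tissues in which a subunit is known was not tested over the list. The difference between paralogs was not tested, because their probes differ.

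Among 14 genes of the MiT factors and of lysosomal mTORC1 control 11 were called. The Ragulator subunit gene Lamtor2 stood at 9.25 ± 0.16 (SD, n = 3) and the Rag GTPase gene Rraga at 7.77 ± 0.26, while Rragd, also a Rag GTPase gene, had 4.28, 4.59 and 4.62 on arrays 1, 2 and 3. Fnip2, a partner of folliculin, had 5.45, 5.81 and 6.54 and was not called (adjusted p = 0.125, limma). All 15 autophagy genes were called, with Rab7, the GTPase of late endosomes, at 11.17 ± 0.17 and the autophagosome protein gene Gabarap at 10.02 ± 0.45. Without array 1 Atg5 lost its call and 14 remained. Of 4 cathepsin inhibitor genes, cystatin C (Cst3), at 11.64 ± 0.09, and cystatin B (Cstb), at 9.57 ± 0.21, were called. Cst7, known from cytotoxic and activated myeloid cells, had 5.31, 5.68 and 5.50, and Serpinb1a, an inhibitor of neutrophil proteases, had 5.50, 4.47 and 6.18, and neither was called.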

How the data were processed

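Arrays were hybridised with RNA of 3 samples of sorted GFP-positive marrow cells. The authors deposited log2 values for each probeset. Expression Console 1.1 from Affymetrix and RMA produced them, per the submitters' processing notes. RMA subtracts background, gives all arrays the same distribution and combines probes, so that shifts shared by a whole array are lost. No RMA setting or genome build is given in the sources used here.

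Of 1256831 probesets, 318760 had 1 gene symbol in the platform annotation, 6684 had several and 931387 have no name here. RefSeq synonyms (GRCm38.p6) replaced 4227 older symbols. Gene medians were fitted with limma 3.58.1 in R 4.3.3, as an intercept-only model on margins over the array's threshold, and the scripts were tested on simulated data. The background genes were themselves called in 9 of 355 cases. Per-array values are given for uncalled genes and, in each group, for the 3 called genes with the highest margin, the called gene with the lowest margin and the gene with the widest range. Atp6v0d1, Ctsd, Lgmn, Ids, Mcoln1 and Gla, the related genes beyond the 2 highest called and 3 lowest uncalled of a list, and the markers given with values were added after their values were seen. The members and lists were chosen with earlier results of these data known. Some genes of the related lists are not reported here.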

Additional observations from a re-analysis of the deposited data

How the results depend on the processing

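With 11 alternatives for each of 55 genes, call and direction held in 557 of 605 cases. They held under every alternative for 33 of the 55 genes. No alternative but the 99th percentile threshold moved the count of lysosomal genes above background by over 1.5 times, and that threshold gave 31 (and 3797 of all genes, against 9548). Under it the margin was -0.58 for Gla, -0.23 for Ids, -0.74 for Naglu, -0.99 for Manba, -1.08 for Neu1, -1.19 for Galc, -0.80 for Arsa, -0.31 for Smpd1, -0.064 for Atp6v1h, -1.05 for Acp5, -0.96 for Tfeb and -0.47 for Tfe3. At the 90th percentile 53 were called (and 11980 of all genes, against 9548), with Acp5, Galc, Manba, Neu1 and Tfeb gained. With genes of at least 2 probesets Arsa, Gla, Naglu and Tfe3 lost their calls, and the margin was -0.14 for Manba, -0.23 for Neu1, -0.34 for Galc, -0.20 for Acp5 and -0.10 for Tfeb. In these 3 settings the genes' values are unchanged and the threshold alone moves their margins. With the mean over probesets it was -0.12 for Galc and -0.28 for Acp5, and with 1 array left out Galc had -0.22 (without array 1) to 0.24 (without array 3). The cause of the changes with the mean or without an array was not tested. The count of genes with a range above 1 was 2 with the mean over probesets and 2 to 3 when 1 array was left out, and fewer arrays give smaller ranges by construction. Leaving out probesets at 0 changed nothing, since no named probeset was at 0, so the 55 cases of that setting could not differ. Without array 2 limma pooled the variances of all genes into one. No paired analysis was possible because there was 1 group. Arsa, Naglu and Gla, called with margins of 0.42, 0.49 and 0.65, lost their calls in settings with 1 array left out. Each did so at lower and at higher margins than with all 3 arrays.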
